A study of Mus musculus with 9 samples.

Results

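The genes described here are 8 enzymes and channels with which fat cells make the glycerol backbone of triglyceride, load it with fatty acids and let glycerol out again: Gpd1, Pck1, Gpam, Agpat2, Lpin1, Dgat1, Dgat2 and Aqp7. They were chosen by gene name from a table of 3958 abundant genes, and all 8 were listed and passed the filter on low counts. RNA was sequenced from adipose tissue of male C57BL/6J mice, a common inbred strain, labelled day 21, in 9 libraries. Electroacupuncture, in which current passes through acupuncture needles, was given to the 3 libraries of the EA group (numbers 5, 7 and 8). The 3 libraries titled MPX (2, 5 and 7) and the 3 titled CPX (4, 6 and 8) carry no treatment label. By its design text the series holds a normal diet group, a high-fat diet group and a high-fat diet group with electroacupuncture. No label says which diet belongs to MPX or CPX, and differences are therefore not read as effects of a diet. The age of the mice and the fat depot are not stated, an extraction note in the labels mentions retinas, and no label says that each library is a separate mouse. The p-values therefore measure the spread between libraries, which may be technical.

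Triglyceride is built on glycerol 3-phosphate. White fat cells phosphorylate free glycerol poorly, so they make this backbone from sugar through Gpd1, or from pyruvate and amino acids by glyceroneogenesis, whose controlling enzyme is Pck1. Gpam and Agpat2 add the fatty acids one after the other, lipin-1 removes the phosphate, and Dgat1 or Dgat2 adds the last fatty acid. When triglyceride is broken down, glycerol leaves the cell through the channel Aqp7.

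The listed counts per library summed to between 12115183 and 14208853, and each of the 8 genes had at least 17299 counts over the 9 libraries. Counting error is therefore small beside their spread over the 9 libraries. It is not small beside the SD of Gpam within EA (4.23 CPM, from 2303, 2444 and 2376 counts). Levels are CPM, relative to the listed counts and after TMM scaling. The tissue label was checked against 12 adipocyte markers, all of which were listed. They summed to between 28500 and 38900 CPM in EA, between 38230 and 40550 CPM in MPX, and to 81760, 6225 and 33820 CPM in CPX 4, CPX 6 and CPX 8. Of the markers of muscle (6), liver (5), mammary epithelium (5), retina (6) and brown fat (6), 0 were among the listed genes. Listed genes have at least 8471 counts over all libraries, so markers at lower levels would not be seen. The 7 B cell markers summed to 551, 842 and 1687 CPM in EA 5, EA 7 and EA 8, to at most 18.3 CPM in MPX, and to 10.4, 3177 and 24.9 CPM in CPX 4, CPX 6 and CPX 8. Macrophage markers (7 of 8 listed) lay between 817 and 3607 CPM, endothelial markers (5 of 6) between 766 and 2017 CPM and fibroblast or preadipocyte markers (6 of 6) between 2463 and 11350 CPM, with overlap of the groups. CPX 6 thus stood apart, low in adipocyte and high in B cell transcripts, and the comparisons of the 8 genes with CPX are given with and without it. In bulk tissue, fewer fat cells and less of a transcript per fat cell cannot be told apart.

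Per kilobase of gene model, Pck1 was the most abundant of the 8 transcripts (669 CPM per kb on average over the 9 libraries), followed by Dgat2 (629.9), Gpd1 (379) and Agpat2 (275). Aqp7 (78.9), Dgat1 (75.7), Lpin1 (46.7) and Gpam (38.0 CPM per kb) lay lower. The neighbours Pck1 and Dgat2, and likewise Aqp7 and Dgat1, changed order between groups. Their order in these averages thus did not hold in every group. In MPX, Dgat2 reached 1013 ± 454 CPM per kb and Pck1 535 ± 238, whereas in EA Dgat2 was at 323 ± 126 and Pck1 at 836 ± 272 CPM per kb (SD, n = 3 each). Dgat1 and Dgat2 carry out the same last step, and Dgat2 transcripts outnumbered those of Dgat1 in all 9 libraries, Dgat1 being at between 0.0634 and 0.3 of the Dgat2 count.

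Gpd1 makes glycerol 3-phosphate from the glycolytic intermediate dihydroxyacetone phosphate. It stood at 1612, 924 and 781 CPM in EA, at 1021, 1541 and 1471 CPM in MPX, and at 1683, 165 and 903 CPM in CPX. The ranges of the groups overlapped, with CPX 6 far below every other library. The gene (mm10, chromosome 15, 99717515 to 99725005, plus strand) overlaps the antisense transcript Gm16537 over 6960 bases, and with no strand setting stated the reads of these genes cannot be told apart.

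Pck1 encodes the cytosolic phosphoenolpyruvate carboxykinase (chromosome 2, 173153048 to 173159273, plus strand). It had 3651, 3118 and 1835 CPM in EA 5, EA 7 and EA 8, 2554, 949 and 2004 CPM in MPX 2, MPX 5 and MPX 7, and 3478, 461 and 2601 CPM in CPX 4, CPX 6 and CPX 8. The highest value was in EA, but EA 8 lay inside the MPX range. MPX 5 was low in Pck1 while it held the second highest Dgat2 level of all libraries.

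Aqp7, the glycerol channel of fat cells (chromosome 4, 41033074 to 41048139, minus strand), was measured at 242, 294 and 121 CPM in EA. It lay at 331, 291 and 310 CPM in MPX, a narrow range, and at 198, 26.4 and 196 CPM in CPX. All MPX values but that of MPX 5 were above all EA values, and all 3 were above the CPX values.

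Gpam, the mitochondrial acyltransferase that adds the first fatty acid, was at 170, 164 and 171 CPM in EA, and at 100.5, 122 and 125 CPM in MPX. In CPX it was at 196, 73.8 and 187 CPM. The EA values were close to each other and all above MPX, and the CPX values lay on both sides of them. The deposited gene model of Gpam (chromosome 19, 55069734 to 55099451, minus strand) is shorter than that of the GENCODE M21 annotation (55067268 to 55127238).

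Agpat2, which adds the second fatty acid and without which fat tissue fails to form in mice and in human lipodystrophy, had 707, 287 and 279 CPM in EA. It had 535, 1019 and 676 CPM in MPX and 1148, 132 and 488 CPM in CPX. EA 7 and EA 8 were below all MPX values, while EA 5 was inside their range. Agpat2 (chromosome 2, 26593057 to 26604417, minus strand) lies wholly inside the span of Gm20532 of the opposite strand and shares 64 bases with that of Egfl7. As for Gpd1, whether exons or counted reads are shared was not tested.

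Lpin1, the phosphatidate phosphatase lipin-1 (chromosome 12, 16535669 to 16610966, minus strand), was measured at 448, 588 and 344 CPM in EA, at 332, 531 and 501 CPM in MPX and at 668, 112 and 541 CPM in CPX. The EA and MPX ranges nearly coincided.

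Of the acyltransferases of the last step, Dgat1 (chromosome 15, 76502015 to 76511953, minus strand) was at 283, 180 and 166 CPM in EA, at 216, 281 and 261 CPM in MPX, and at 443, 54.6 and 196 CPM in CPX. Dgat2 (chromosome 7, 99153658 to 99182719, minus strand) had 1289, 1140 and 554 CPM in EA, against 1522, 3731 and 4113 CPM in MPX. In CPX it had 2728, 255 and 2144 CPM. Every EA value of Dgat2 was below every MPX value, and also below CPX 4 and CPX 8, while CPX 6 was lower still. Dgat1 showed no such separation.

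**Figure D1:**
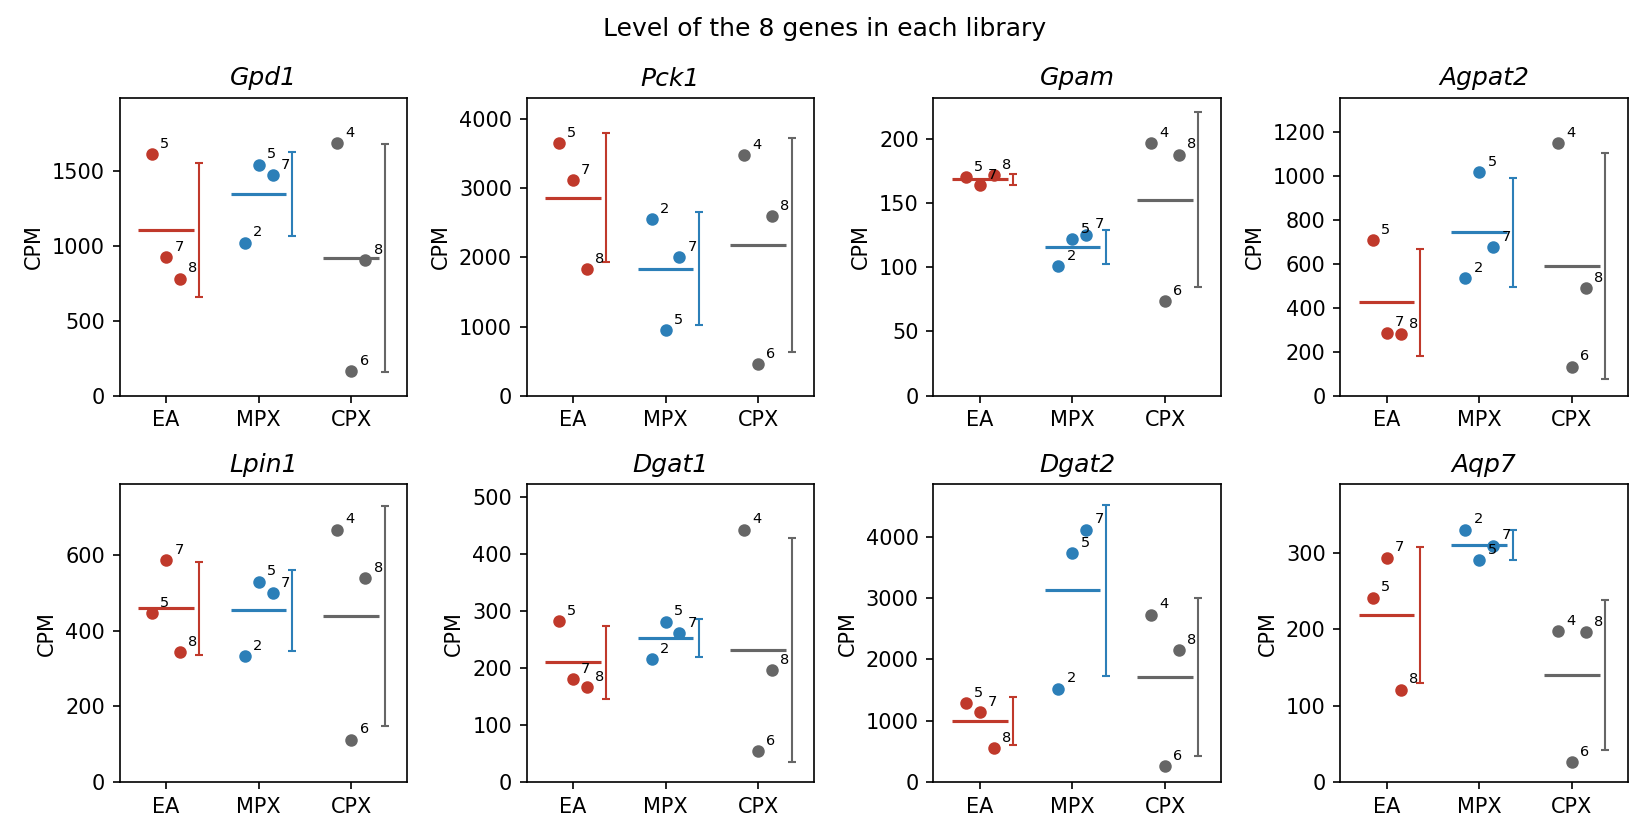
CPM (linear axes from 0) of each of the 8 genes by group, with 1 point per library labelled by its number, a line at the group mean and a bar beside it for the SD over 3 libraries. Dgat2 in EA (554 to 1289 CPM) lies below MPX (1522 to 4113 CPM), Gpam in EA (164 to 171 CPM) lies above MPX, and CPX 6 is the lowest library for every gene.

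The first question of the design is how adipose tissue after electroacupuncture differs from tissue with no such label, here MPX. Of the 8 genes, Dgat2 differed most: it reached 994 ± 389 CPM in EA, against 3122 ± 1399 CPM for MPX, a log2 difference of -1.65 (SE 0.81; SD over 3 libraries each), or 3.14-fold lower. Gpam had means of 168 ± 4.23 CPM (EA) and 116 ± 13.4 CPM (MPX) (log2 difference 0.54, SE 0.34), and Pck1 of 2868 ± 934 CPM (EA) and 1836 ± 816 CPM (MPX), a difference of 0.64 (SE 0.71). Agpat2 had a log2 difference of -0.81 (SE 0.73), Aqp7 of -0.50 (SE 0.65), Gpd1 of -0.28 (SE 0.71), Dgat1 of -0.27 (SE 0.62) and Lpin1 of 0.02 (SE 0.58). In the edgeR quasi-likelihood fit of 9 libraries, 0 of the 8 genes passed an adjusted p of 0.05 and 0 had an unadjusted p below 0.05. The smallest unadjusted p was 0.0746, for Dgat2 (edgeR adjusted p = 0.775). Over all 3958 genes 0 passed (a share of 0%) and 202 (5.1%) had an unadjusted p below 0.05. DESeq2 and limma voom also called 0 of the 8 (beside 1.24% and 0% of all genes). DESeq2 gave 1 of them, Dgat2, an unadjusted p below 0.05. The share of all genes with such a p by DESeq2 was not counted, so nothing is read from this. In a fit of EA and MPX alone, Gpam had an edgeR adjusted p of 0.0739 and Dgat2 of 0.0884.

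CPM ranges of EA and MPX did not overlap for 2 of the 8 genes, Gpam (higher in EA) and Dgat2 (lower). This was so for 40.5% of all genes tested, 21.5% higher and 19% lower in EA. The share among the 8 was therefore not above that of the table. Of the 8 differences 3 were above 0 and 5 below, with a median of -0.28 (from -1.65 to 0.64). That median was -0.56 without EA 5 and -0.11 without EA 8, its extremes with 1 library left out. Over all genes the median was 0.01, with 51.4% of differences above 0 and 48.6% below. Of the marker lists, the B cell markers also moved with these groups (551 to 1687 CPM in EA, 4.32 to 18.3 CPM in MPX). The summed adipocyte markers were lower in EA 7 and EA 8 than in MPX, but EA 5 (38900 CPM) lay inside the MPX range. As a mean of centred log2 levels, the same adipocyte markers overlapped, at 0.288, 0.21 and -0.274 in EA and 0.341, -0.013 and 0.374 in MPX. The part of these marker lists in the differences was not tested beyond the scaling given next.

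To compare the genes with the rest of the fat cell program, each was set against the mean log2 level of the 12 adipocyte markers in the same library. On this scale, centred on the 9 libraries, Dgat2 stood at -0.46, -0.56 and -1.11 in EA, at -0.27, 1.38 and 1.13 in MPX, and at -0.22, -0.15 and 0.26 in CPX. All 3 EA values lay below all 6 others, CPX 6 included. Pck1 stood at 0.61, 0.46 and 0.18 in EA against 0.04, -1.03 and -0.34 in MPX, without overlap, and overlapped CPX (-0.30, 0.27 and 0.10). Gpam was also above MPX on this scale, at -0.002, 0.02 and 0.57 in EA against -0.81, -0.18 and -0.53 in MPX. Relative to the markers, EA and MPX thus did not overlap for 3 of the 8 genes, beside 22.3% of all genes (15.6% higher and 6.72% lower in EA). From CPX, EA was apart in 1 of the 8, Dgat2, which was lower, beside 2.88% of all genes (2.53% lower). Dgat2 was the only one of the 8 with EA outside the range of all 6 other libraries on this scale, beside 0.935% of all genes (0.808% lower in EA). In CPM, EA lay outside the range of the 6 others for 0 of the 8, beside 1.92% of all genes. The shares that involve CPX include CPX 6, where the mean centred log2 level of the markers was -2.36. They were not counted without CPX 6, so they do not show how rare such a gene would be then. With library factors set by these markers, edgeR gave Dgat2 a log2 difference of -1.59 for EA minus MPX (adjusted p = 1).

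**Figure D2:**
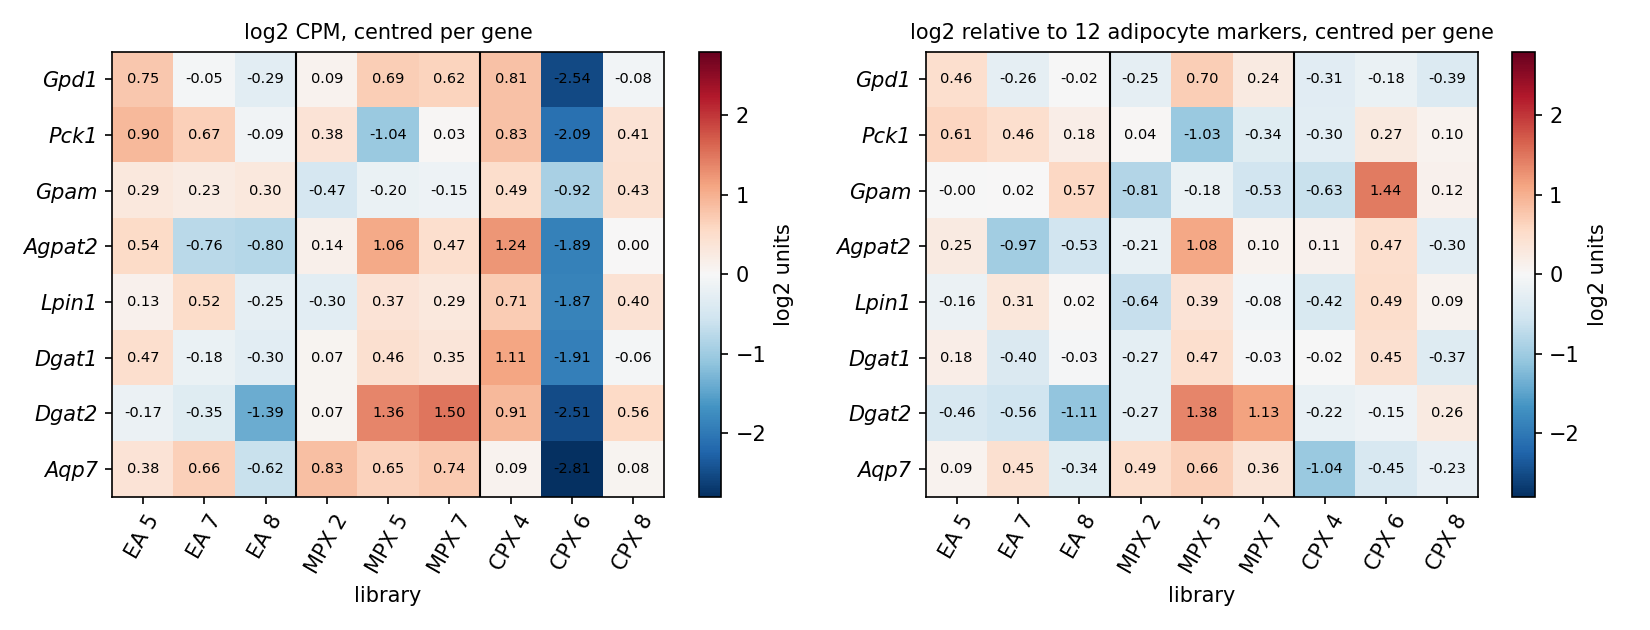
Log2 level of each gene (rows) in each library (columns, grouped as EA, MPX and CPX), centred on the 9 libraries: log2 CPM at left, level relative to 12 adipocyte markers at right. At left CPX 6 is low in every row (-0.92 to -2.81). At right that column is no longer uniformly low, and Dgat2 is lowest in the 3 EA libraries (-0.46 to -1.11).

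Pck1 and Gpam, which had the highest EA minus MPX differences of the 8, are shown by their promoters. Of the 8 genes, 5 had windows in the RefSeq table (GRCm38.p6, 250 bases before to 50 after a start), and Gpam and Aqp7 had 2 starts each. Gpd1, Dgat1 and Dgat2 had none. Both strands were searched for TTACGTCA (a cAMP response element variant), TGACGTCA (its consensus form), AGGTCA (bound by many nuclear receptors) and its direct repeat with 1 base of any kind between the copies, which overlaps it. The other motifs were TATAAA, the core of a TATA box, and CCAAT. Capitals mark the matches.
Pck1, chr2:173152823-173153122, plus strand: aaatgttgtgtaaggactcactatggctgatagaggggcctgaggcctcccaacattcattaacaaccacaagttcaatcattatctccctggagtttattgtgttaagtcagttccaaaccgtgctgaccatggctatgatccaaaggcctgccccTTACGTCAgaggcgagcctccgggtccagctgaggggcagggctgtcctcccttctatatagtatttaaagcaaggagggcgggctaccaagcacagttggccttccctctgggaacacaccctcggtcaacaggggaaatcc
Gpam, chr19:55099428-55099727, minus strand: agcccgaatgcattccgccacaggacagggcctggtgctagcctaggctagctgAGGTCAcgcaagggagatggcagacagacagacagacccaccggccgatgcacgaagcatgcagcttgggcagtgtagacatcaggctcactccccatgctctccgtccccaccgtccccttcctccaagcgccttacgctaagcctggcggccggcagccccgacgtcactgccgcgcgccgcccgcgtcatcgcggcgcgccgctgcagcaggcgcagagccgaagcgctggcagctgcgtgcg
The Pck1 window held TTACGTCA, starting 93 bases before the start site, as did 0.499% of all 32851 windows. This element is known from rat and mouse work as the site through which cAMP raises Pck1. The Gpam window printed, inside which the deposited gene model begins (at 55099451, short of the window's start site), held 1 AGGTCA, present in 16.3% of all windows. The other Gpam start, upstream, held 1 CCAAT (37.4% of windows). AGGTCA was also found in the Lpin1 window and in both Aqp7 windows, which overlap and share a match. The Agpat2 window matched none of the 6 motifs. Of the rest, TGACGTCA is present in 1.79%, the direct repeat in 0.0396% and TATAAA in 13.6% of all windows, and was found in 0 of the 7 windows of these genes. A match describes letters in these windows and not binding.

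The second question sets EA against CPX. Aqp7 had the highest difference, 219 ± 88.8 CPM in EA and 140 ± 98.4 CPM in CPX (log2 difference 0.64, SE 0.65), and Dgat2 the lowest, 994 ± 389 CPM (EA) and 1709 ± 1293 CPM (CPX) (-0.78, SE 0.79; SD, n = 3 each). Pck1 had a difference of 0.40 (SE 0.71), Gpd1 of 0.27 (SE 0.71), Gpam of 0.14 (SE 0.34) and Lpin1 of 0.06 (SE 0.58). Agpat2 was at -0.47 (SE 0.72) and Dgat1 at -0.14 (SE 0.62). By edgeR 0 of the 8 passed and 0 had an unadjusted p below 0.05 (smallest edgeR adjusted p = 0.997), beside 0% and 2.96% of all genes; DESeq2 and limma voom called 0 of them as well (beside 0.126% and 0%). With CPX 6 included, CPM ranges did not overlap for 0 of the 8, beside 7.18% of all genes. Gpam and Dgat2 in EA lay below CPX 4 and CPX 8, and overlapped CPX only through CPX 6. The share of all genes without CPX 6 was not counted. The median difference was 0.10, with 5 of 8 above 0. Over all genes it was -0.09, with 39% above 0 and 61% below. Other scalings turned the sign of Dgat1 (0.203 without TMM) and, with scaling to the adipocyte markers, of Gpam (-0.345) and Lpin1 (-0.03).

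These directions depended on CPX 6, the library with 6225 CPM of adipocyte and 3177 CPM of B cell markers. Without it, 7 of the 8 differences were below 0 (median -0.32, beside -0.04 over all genes). Gpd1 (-0.24), Pck1 (-0.10), Gpam (-0.20) and Lpin1 (-0.41) took the other sign, while Aqp7 stayed above 0 (0.14). Dgat2 then had a difference of -1.30 (SE 0.50, edgeR adjusted p = 0.183), the smallest adjusted p of the 8. Without CPX 4, whose values were the highest in CPX for 8 of the 8 genes, 7 were above 0, Dgat2 (-0.28) being the exception. The median was then 0.62, beside -0.06 over all genes.

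The remaining comparison, MPX with CPX, is between the groups with no treatment label. Aqp7 was 2.22-fold higher in MPX, with a mean of 310.3 ± 20.01 CPM there against 140 ± 98.4 CPM in CPX (log2 difference 1.15, SE 0.66). For Dgat2 the means were 3122 ± 1399 CPM (MPX) and 1709 ± 1293 CPM (CPX), a difference of 0.87 (SE 0.80). Gpam, with means of 116 ± 13.4 CPM for MPX and 152.5 ± 68.3 CPM for CPX (-0.40, SE 0.34), and Pck1 (-0.25, SE 0.71) were below 0. Gpd1 was at 0.55 (SE 0.71), Agpat2 at 0.33 (SE 0.72), Dgat1 at 0.13 (SE 0.62) and Lpin1 at 0.05 (SE 0.58; -0.154 when scaled to the adipocyte markers). With edgeR 0 of 8 passed and 0 had an unadjusted p below 0.05 (smallest edgeR adjusted p = 0.438, for Aqp7), beside 0% and 13.2% of all genes, and DESeq2 and limma voom called 0 of the 8 (beside 5.08% and 0%). With CPX 6 included, ranges did not overlap for 1 of the 8, Aqp7, beside 16.2% of all genes (8.46% higher in MPX). Pck1, Gpam and Lpin1 in MPX lay below CPX 4 and CPX 8, and overlapped CPX only through CPX 6. The share of all genes without CPX 6 was not counted. Over all genes 40.7% of differences were above 0 and 59.3% below, with a median of -0.11, against 6 and 2 of the 8. Aqp7 was also higher in MPX relative to the adipocyte markers, at 0.49, 0.66 and 0.36 in MPX against -1.04, -0.45 and -0.23 in CPX, and again did not overlap, as in 4.75% of all genes (1.49% higher in MPX). That share too was counted only with CPX 6. Without CPX 6 the Aqp7 difference was 0.66 (SE 0.34) and that of Gpam -0.73 (SE 0.16, edgeR adjusted p = 0.231). Of the 8 differences, 5 were then below 0 in place of 2 (median -0.24 in place of 0.23, beside -0.02 over all genes). Leaving out CPX 4 instead put 7 of the 8 above 0 (median 1.17, beside 0.01 over all genes).

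**Figure D3:**
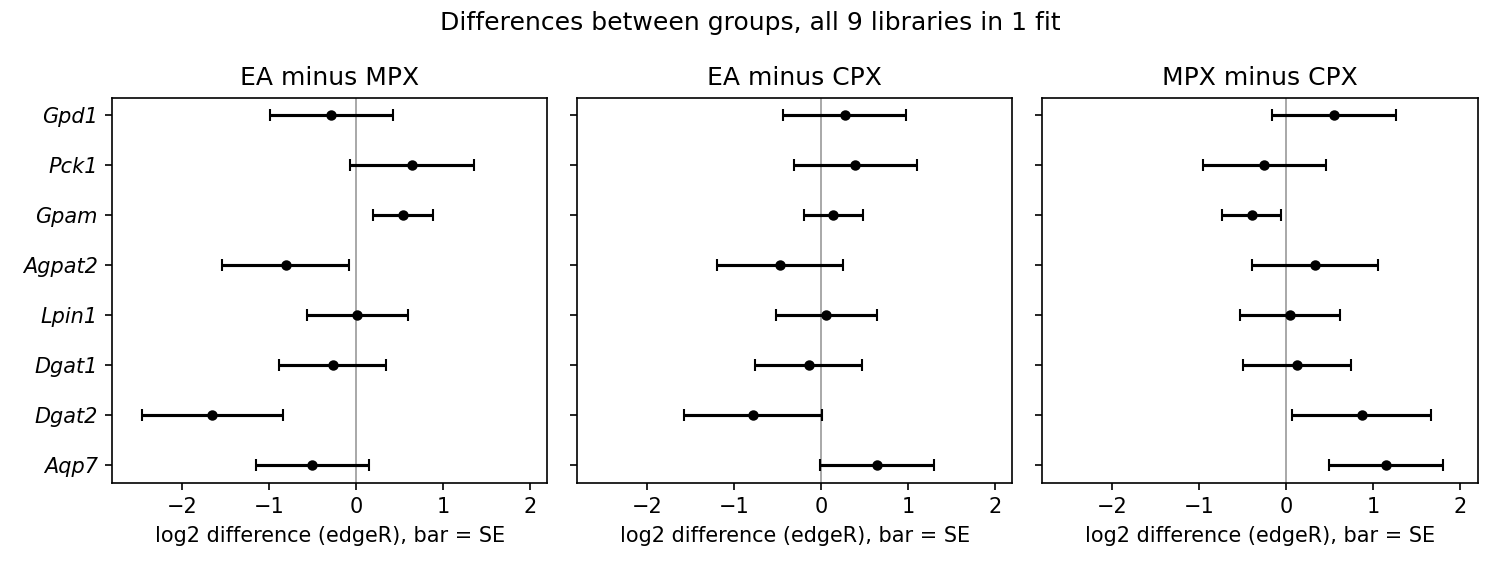
Log2 differences of the 8 genes (rows) in the comparisons EA minus MPX, EA minus CPX and MPX minus CPX, from 1 edgeR fit of 9 libraries, with bars of 1 SE. Dgat2 in EA minus MPX (-1.65) is farthest from 0, and 0 of the 8 genes passed the test in any panel.

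Ratios of 2 of the genes within a library do not depend on how libraries are scaled. Of the 28 possible pairs, the ratio did not overlap between EA and MPX for 13 (46.4%), beside 39.9% of all pairs of listed genes. Between EA and CPX this held for 6 pairs (21.4%, beside 6.58%), and between MPX and CPX for 9 (32.1%, beside 17.1%). Without CPX 6, which leaves 2 libraries in CPX, it held for 8 pairs between EA and CPX (28.6%, beside 36.4%) and for 9 between MPX and CPX (32.1%, beside 30.5%), shares below and near those of all pairs. Pairs share genes, and the comparisons share libraries, so neither are independent. For 3 of the 28 pairs (10.7%) the EA ratios lay outside the range of all 6 other libraries, as was so for 1.65% of all gene pairs. These shares include CPX 6 and were not counted without it. As the share of all pairs between EA and CPX rose from 6.58% to 36.4% without CPX 6, no excess is read from them.

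In counts, Pck1 over Dgat2 was 2.83, 2.74 and 3.31 in EA, against 1.68, 0.254 and 0.487 in MPX and 1.27, 1.81 and 1.21 in CPX. The 3 EA libraries were close together and above every other library, also above CPX 6. Gpd1 over Dgat2 was 1.25, 0.811 and 1.41 in EA, against 0.671, 0.413 and 0.358 in MPX and 0.617, 0.646 and 0.421 in CPX, again highest in EA. Gpd1 over Agpat2 was 2.28, 3.22 and 2.8 in EA, against 1.91, 1.51 and 2.18 in MPX and 1.47, 1.25 and 1.85 in CPX. Of all 10 pairs of Gpd1 or Pck1 over an enzyme of esterification (Gpam, Agpat2, Lpin1, Dgat1 and Dgat2), these 3 were the ones with EA outside the other 6 libraries, and 7 were not. Against MPX alone EA was above in 4 of the 10, below in 1 and overlapped in 5. The pair with EA below was Gpd1 over Gpam, at 9.48, 5.65 and 4.55 in EA against 10.2, 12.7 and 11.7 in MPX, with 8.58, 2.24 and 4.82 in CPX. Gpam over Dgat2 was higher in EA (0.132, 0.143 and 0.309) than in MPX (0.066, 0.0326 and 0.0305), but CPX 6 (0.289) lay inside the EA range. These ratios were picked after their values were seen and were not tested. With 3 libraries against 3, the smallest p of an exact two-sided permutation test is 0.1.

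**Figure D4:**
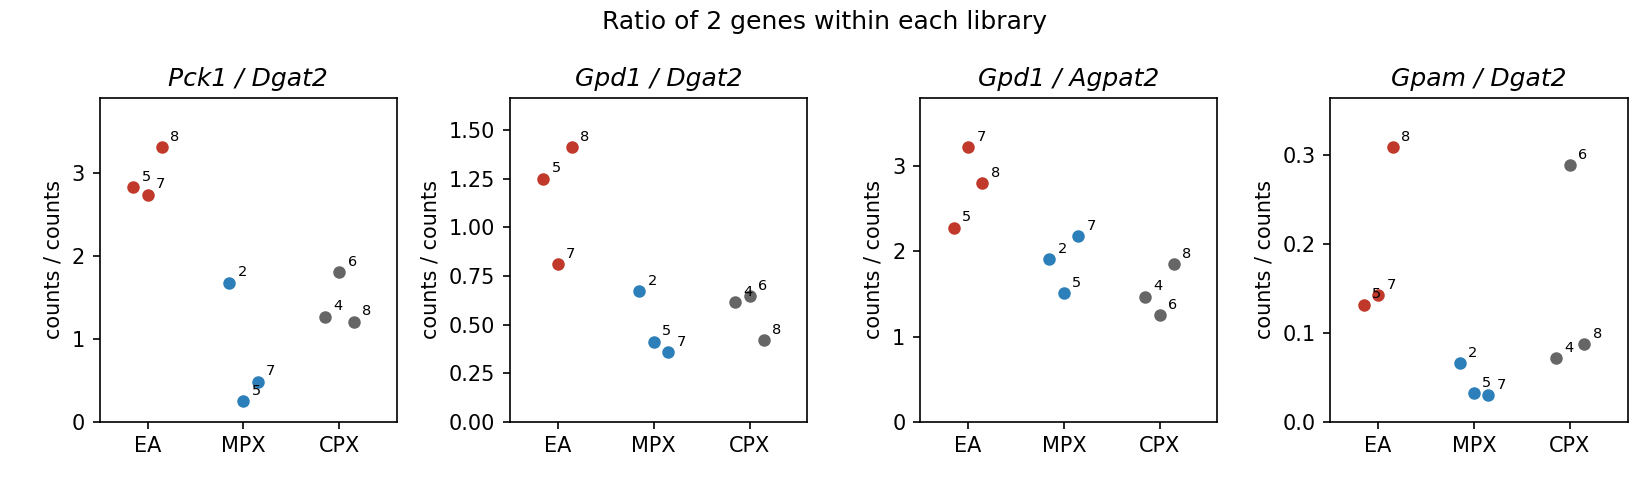
Ratio of counts of 2 genes in each library (linear axes from 0), with 1 point per library labelled by its number, for EA, MPX and CPX. Pck1 over Dgat2 lies between 2.74 and 3.31 in EA and at most at 1.81 elsewhere, and in the last panel CPX 6 lies within the EA range.

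The genes of the wider pathway were taken from a list of 53, of which 29 were in the table, 21 of them beside the 8. By edgeR 0 of these 21 passed in any comparison of all 9 libraries. In EA minus MPX 8 of the 21 differences were above 0 (median -0.15), and the smallest p values belonged to Cept1, Gpd2, Pcyt1a and Gpat3. Cept1, which makes phosphatidylcholine and phosphatidylethanolamine from the same diacylglycerol that Dgat1 and Dgat2 use, stood at 92.1 ± 8.72 CPM in EA against 50.6 ± 9.10 CPM in MPX (log2 difference 0.86, SE 0.27, edgeR adjusted p = 0.775). Gpd2, the mitochondrial enzyme that oxidises glycerol 3-phosphate, stood at 92.9 ± 32.3 CPM in EA against 60.02 ± 3.96 CPM in MPX. Pcyt1a, the rate-limiting enzyme of phosphatidylcholine synthesis, stood at 88.0 ± 4.86 CPM in EA against 112 ± 2.84 CPM in MPX. Gpat3, an acyltransferase of the endoplasmic reticulum with the role of Gpam, stood at 61.9 ± 11.4 CPM in EA against 112 ± 26.9 CPM in MPX.

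In MPX minus CPX 10 of these 21 differences were above 0 (median -0.02). Cept1 averaged 50.6 ± 9.10 CPM (MPX) and 103 ± 34.7 CPM (CPX) (log2 difference -1.02, SE 0.27, edgeR adjusted p = 0.362). Without CPX 8 the edgeR adjusted p of Cept1 was 0.0443. That fit left CPX 4 and CPX 6 in the group, and 168 of 3958 genes passed, with 1 of the 21 among them. No excess is read from this. Gpd2 had 60.02 ± 3.96 CPM (MPX) and 159.5 ± 75.1 CPM (CPX) (-1.41, SE 0.38, edgeR adjusted p = 0.362), and Gpd1l, a relative of Gpd1, 78.5 ± 5.78 CPM (MPX) and 117 ± 25.4 CPM (CPX) (-0.57, SE 0.20). These 3 were called by DESeq2 (adjusted p = 0.0141 for Cept1 and Gpd2, 0.0485 for Gpd1l), as were 5.08% of all genes. The fourth by p was Pcyt1a, with 112 ± 2.84 CPM (MPX) and 82.0 ± 24.6 CPM (CPX). Ranges of MPX and CPX did not overlap for these 4 of the 21, Pcyt1a higher and the other 3 lower in MPX, beside 16.2% of all genes. Without CPX 6, 5 of the 21 differences were above 0 (median -0.30, beside -0.02 over all genes). Those of Gpd2 (-1.70), Cept1 (-1.06), Gpd1l (-0.39) and Pcyt1a (0.25) kept their sign (edgeR adjusted p between 0.151 and 0.476).

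In EA minus CPX 8 of the 21 differences were above 0 (median -0.15). Gpd2 averaged 92.9 ± 32.3 CPM in EA and 159.5 ± 75.1 CPM in CPX (log2 difference -0.78, SE 0.37) and Gpd1l 89.6 ± 6.62 CPM in EA and 117 ± 25.4 CPM in CPX (-0.38, SE 0.20). Chpt1, which makes phosphatidylcholine from diacylglycerol, averaged 949 ± 369 CPM in EA and 1935 ± 1878 CPM in CPX. Pnpla3, a lipid droplet protein, averaged 225 ± 105 CPM in EA and 406 ± 305 CPM in CPX. None passed (edgeR adjusted p = 0.997 for each of these 4). Without CPX 6, 3 of the 21 differences were above 0 (median -0.24, beside -0.04 over all genes). Chpt1 was then at -1.55 (SE 0.46), Pnpla3 at -1.38 (SE 0.40), Gpd2 at -1.08 (SE 0.30) and Gpd1l at -0.21 (SE 0.16). Again 0 of the 21 passed (edgeR adjusted p at least 0.128 for these 4).

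Across libraries some of the 8 genes were more alike in level than others. As a description over 9 libraries, which share their scaling, Pearson's r of log2 CPM between the 28 pairs ran from 0.389 to 0.973 (median 0.792). Without CPX 6 it ran from -0.683 to 0.921 (median 0.349), so that much of the likeness was carried by that library. Gpd1, Agpat2 and Dgat1 kept together without it, with r between 0.906 and 0.921. Pck1 and Gpd1, at 0.728 with CPX 6, were at -0.007 without CPX 6. Gpam and Aqp7 were at 0.486 with that library and -0.683 without. The listed genes outside the 8 whose level was most like the mean of the 8 were Ywhag (r = 0.988), Cdk16 (0.987), Miga2 (0.985), Gpt2 (0.983) and Fitm2 (0.981), with r between 0.874 and 0.950 without CPX 6. Taken singly, the gene most like Gpd1 was Acsl1 (r = 0.989), for Pck1 it was Ces1f (0.965), for Dgat2 Smpd1 (0.984) and for Aqp7 Apol6 (0.987). For Gpam it was Prodh (0.950), for Agpat2 Dlat (0.972), for Lpin1 Clmn (0.990) and for Dgat1 Cat (0.982). Without CPX 6 these 8 values lay between 0.894 (Gpam and Prodh) and 0.972 (Dgat2 and Smpd1).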

How the data were processed

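Per the labels' protocols, adipose tissue RNA of 9 libraries was prepared with an Illumina TruSeq kit. The submitters' processing notes name HISAT2 2.0.5 and mm10. How reads were counted, on which annotation and strand, is not given in the sources used here. The deposited table holds raw counts, with the length of each gene model, per the file headers. The table analysed here is the abundant part of the transcriptome (at least 8471 counts per gene over all libraries), so its column sums are not depths and CPM values are higher than over a whole library. CPX 4 had a TMM factor of 0.753 and the others 0.981 to 1.10.

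Counts were fitted with edgeR 4.0.16 in R 4.3.3 (1 mean per group, TMM, filterByExpr, robust quasi-likelihood), with p-values adjusted after Benjamini-Hochberg over 3958 genes in each of 3 comparisons. Each SE was taken from the log2 difference and its F statistic. Groups follow the titles and the treatment label. No libraries of a group were near-identical (chi-square per degree of freedom at least 71.5). The alternatives were RLE scaling, no TMM, other filters, DESeq2 1.42.0, limma voom 3.58.1, only the groups compared, the robust option off, the title number as a block, scaling to adipocyte markers, and each library left out. Ratios without CPX 6 were added after seeing the data. The 8 genes, the pathway and marker lists, and the naming rule (the 8, the 4 other pathway genes with the smallest p per comparison, and the genes most alike in level) were chosen with earlier results of these data known.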

Additional observations from a re-analysis of the deposited data

How the results depend on the processing

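In all 3 comparisons and under every setting run, 0 of the 8 genes passed the adjusted threshold, the smallest adjusted p being 0.073 (edgeR, Dgat2 in EA minus MPX with the replicate block) against 0.775 without the block. The count of all genes past the threshold, 0 in each comparison, was 49 with DESeq2, 84 with only the groups compared and 6 with the replicate block in EA minus MPX, 5 with DESeq2 in EA minus CPX, and 201 with DESeq2 in MPX minus CPX. With 1 library left out it ran from 0 to 23 in EA minus MPX (23 without CPX 6), from 0 to 12 in EA minus CPX (12 without CPX 6), and from 0 to 168 in MPX minus CPX (168 without CPX 8). The filters removed no gene and so say nothing about stability.

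In EA minus MPX only Lpin1 changed sign, to -0.019 with only the groups compared, to -0.007 with the replicate block and within -0.205 to 0.188 when 1 library was left out. With 1 library left out the median of the 8 ran from -0.563 to -0.105, Gpd1 from -0.657 to -0.084, Pck1 from 0.307 to 0.924, Gpam from 0.409 to 0.566, Agpat2 from -1.39 to -0.534, Dgat1 from -0.545 to -0.125, Dgat2 from -2.02 to -1.36 and Aqp7 from -0.776 to -0.212. In EA minus CPX Dgat1 turned to 0.203 without TMM and 0.246 with limma voom, and scaling to adipocyte markers turned Gpam to -0.345 and Lpin1 to -0.03. The replicate block turned Gpd1 to -0.21, Pck1 to -0.503, Gpam to -0.129, Lpin1 to -0.653 and Aqp7 to -0.697, so that with it all 8 were below 0 (median -0.578). With 1 library left out the ranges in EA minus CPX were -0.238 to 1.05 for Gpd1, -0.095 to 0.903 for Pck1, -0.199 to 0.364 for Gpam, -1.06 to 0.457 for Agpat2, -0.405 to 0.489 for Lpin1 and -0.62 to 0.742 for Dgat1. In MPX minus CPX Pck1 turned to 0.033 with limma voom, Lpin1 to -0.154 with scaling to adipocyte markers, and Lpin1 (-0.646), Dgat2 (-0.26) and Aqp7 (-0.527) with the replicate block. There the ranges with 1 library left out were -0.729 to 0.287 for Pck1, -0.14 to 1.29 for Agpat2, -0.413 to 0.508 for Lpin1 and -0.341 to 1.04 for Dgat1. The cause was not tested.

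Whether the numbers in the titles pair the libraries is not known. Deviations from group means correlated at 0.022 (EA 5 and MPX 5), 0.125 (EA 7 and MPX 7) and -0.506 (EA 8 and CPX 8). These values cannot decide it, because each mean is over few libraries and that of CPX includes the outlying CPX 6. The replicate block left 1 residual degree of freedom. Scaling by listed totals moved the median of all genes to 0.11 in EA minus MPX, 0.10 in EA minus CPX and 0.00 in MPX minus CPX. Scaling to adipocyte markers moved it to 0.18, -1.20 and -1.34 in the same order.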
